A study of Mus musculus with 4 samples.

Results

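Ccl2, Ccl7, Cxcl1, Cxcl10, Cxcl16, Cx3cl1, Il6 and Csf3 encode inflammatory chemokines and cytokines, and their mRNA was followed across endothelial types of the neonatal mouse ear. They were taken by symbol from the 31054 features of the matrices, and all 8 symbols were found. The measured cells came from ears of C57BL/6 mice at postnatal day 8. They had been enriched for CD31 on magnetic beads and then sorted alive as CD31+, Cdh5CreERT2-Rtom+ cells, in which a Cre recombinase driven by the endothelial gene Cdh5 marks the cell red. All cells thus carry that allele and that reporter. The samples are 2 libraries that the labels call biological replicates of 1 neonatal group, each with an mRNA part (10x 3' v3) and an antibody tag part. The number of animals per library is not stated. The comparisons therefore set endothelial types and states against each other within the libraries, and every p-value rests on 2 libraries. Adult and adult wounded ears were not analysed here.

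Chemokines are small secreted or membrane-bound proteins that steer leukocytes by binding G protein-coupled receptors, and endothelial cells present them on their luminal face to leukocytes that roll on selectins. In skin, leukocytes leave the blood mainly through post-capillary venules and return through lymphatic vessels. Many of the genes encoding these factors are switched on by NF-kB downstream of the receptors for interleukin 1, tumour necrosis factor and microbial products, and Cxcl10 also by interferons. Their mRNAs are short-lived and are bound by decay factors such as ZFP36 and regnase-1 (Zc3h12a).

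The genes lie on 3 chromosomes of GRCm38. Cxcl1, Cxcl10 and Il6 are on chromosome 5, and Ccl2, Ccl7, Cxcl16 and Csf3 are on chromosome 11. Cx3cl1 is on chromosome 8, between the coding genes Ccl22 and Ccl17. Ccl2 and Ccl7 are next to each other on the forward strand, with 8258 bases between the end of Ccl2 at 82037453 and the start of Ccl7 at 82045712. Cxcl1 has Cxcl2 as its next coding gene, 10755 bases further on. The span of Ccl2 lies within that of the predicted gene Gm17268, that of Cxcl10 within Art3, and Cxcl16 overlaps Zmynd15 by 552 bases, so reads in the shared stretches could be counted for either gene. RefSeq promoter entries (GRCm38.p6) were at hand for 4 of the 8 genes, namely Cxcl1, Cxcl10, Cx3cl1 and Il6.

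The 250 bases before the start of Cxcl1 (chr5:90890995-90891244, forward strand), Cxcl10 (chr5:92348890-92349139, reverse strand) and Il6 (chr5:30012864-30013113, forward strand) are shown because these genes were highest in vein-like cells and each window holds a match to the NF-kB motif, GGGA and TTCC with any 2 bases between. Capitals mark those matches and, in Cxcl10, a match to the interferon response core, GAAA and GAAA with any 2 bases between; both strands were searched, and the 2 overlapping matches in Cxcl1 lie on opposite strands.
Cxcl1: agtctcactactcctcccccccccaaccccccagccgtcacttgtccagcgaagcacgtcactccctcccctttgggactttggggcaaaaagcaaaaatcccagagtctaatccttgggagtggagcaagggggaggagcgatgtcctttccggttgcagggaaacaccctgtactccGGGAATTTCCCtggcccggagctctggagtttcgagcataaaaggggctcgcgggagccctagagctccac
Cxcl10: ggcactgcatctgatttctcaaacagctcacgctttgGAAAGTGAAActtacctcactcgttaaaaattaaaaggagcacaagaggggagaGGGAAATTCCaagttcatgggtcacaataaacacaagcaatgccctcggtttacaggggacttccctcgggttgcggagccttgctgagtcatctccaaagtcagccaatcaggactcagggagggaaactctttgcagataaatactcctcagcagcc
Il6: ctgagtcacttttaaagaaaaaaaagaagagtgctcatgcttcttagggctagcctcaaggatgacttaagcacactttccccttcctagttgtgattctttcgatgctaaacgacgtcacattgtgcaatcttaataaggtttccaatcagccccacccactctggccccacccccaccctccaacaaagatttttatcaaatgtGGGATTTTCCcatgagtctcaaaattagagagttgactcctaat
The NF-kB motif match began 71 bases before the start in Cxcl1, 159 in Cxcl10 and 44 in Il6. It was found in 1.21% of the 32851 RefSeq promoter windows of the same length. The interferon response core of Cxcl10 began 213 bases before its start and was found in 2.98% of the windows. Neither motif was found in the window of Cx3cl1. A match describes these letters and is not evidence of binding.

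Depth was 15989249 unique molecular identifiers (UMIs, counted mRNA molecules) over 1745 barcodes in library 1, and 26675353 UMIs over 2877 barcodes in library 2. The filters left 1372 and 2055 endothelial cells. Values are given for library 1 and then library 2 throughout. The libraries shared 3 barcodes, 1 of them among the cells kept. Library 2 stood apart from library 1 in stress-related genes. Of a list of immediate-early and stress genes, 21 of 22 genes with a value were higher in library 2 among vein-like cells, 20 of 22 among artery-like, 20 of 20 among capillary-like and 20 of 21 among tip-like cells, against 12 of 22 among lymphatic-like cells. NF-kB subunits and feedback genes were higher in library 2 in every type, for 12 to 14 of 16 genes. The chemokine and cytokine genes with a value had medians that were higher in library 2 by 1.27 in vein-like (7 genes), 1.03 in artery-like (4), 1.16 in capillary-like (6), 0.68 in tip-like (5) and 1.62 in lymphatic-like cells (4) on the log2 scale. These medians rest on different genes in each type, so their sizes are not compared. Those of the immediate-early and stress genes were 0.48, 0.58, 0.87, 0.54 and 0.02 in the same order of types. The part of this shift in the results was not tested, so each value is given per library.

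Types were gated on marker genes, none of which is a chemokine or cytokine studied here. The gate gave 168 and 171 vein-like, 217 and 236 artery-like, 173 and 242 capillary-like, 111 and 213 tip-like and 266 and 556 lymphatic-like cells, and left 437 and 637 endothelial cells without a type. The vein markers (Ackr1, Selp, Vwf, Lrg1 and Cysltr1) summed to 2624 and 2401 CPM (UMIs scaled to a common total) in vein-like cells, and to at most 217.5 CPM in any other group. The lymphatic markers summed to 5014 and 5028 CPM in lymphatic-like cells, and to at most 169 CPM elsewhere. The capillary set was less separate, at 28895 and 20676 CPM in capillary-like cells and 18307 and 16476 CPM in vein-like cells. Marker sets of fibroblasts, immune cells, and pericytes or smooth muscle summed to at most 60.0, 20.6 and 111 CPM in the types. The immune markers Cd3e, C1qa, Cpa3 and Fcer1a were at 0 in all 5 types, Ptprc was at 0 except in artery-like cells of library 2, and Csf1r except in capillary-like cells of library 2. E-selectin mRNA (Sele), the selectin of inflamed endothelium, was no gate marker. At least 2 Sele UMIs were seen in 58.9% and 80.7% of vein-like cells, 5.2% and 19.0% of capillary-like and 0% and 9.86% of tip-like cells. In artery-like and lymphatic-like cells the share was at most 0.424%.

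**Figure D1:**
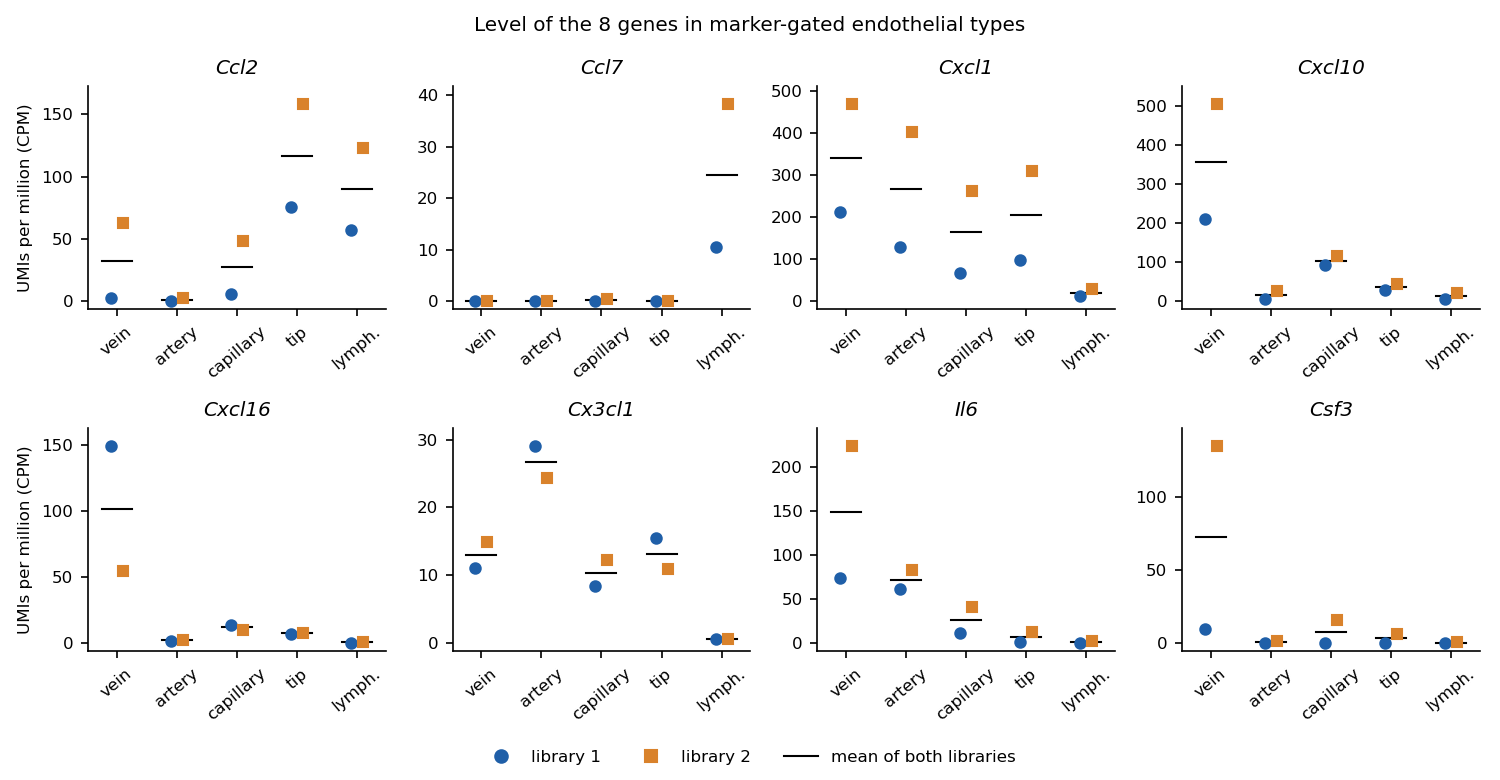
Level of each gene in CPM (y axis, linear, own scale per gene) in each marker-gated type (x axis), with library 1 as circles, library 2 as squares and the mean of both as a line. Cxcl1, Cxcl10, Cxcl16, Il6 and Csf3 had their highest mean in vein-like cells, Cx3cl1 in artery-like, Ccl2 in tip-like and Ccl7 in lymphatic-like cells.

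Cxcl1, a ligand of CXCR2 that attracts neutrophils, was broadly present in blood endothelium and highest in vein-like cells. Its level was 213 and 469 CPM in vein-like cells, 129 and 403 CPM in artery-like, 98.7 and 310.5 CPM in tip-like, 66.5 and 262 CPM in capillary-like and 11.2 and 29.4 CPM in lymphatic-like cells. Both libraries had vein-like cells highest and lymphatic-like cells lowest, and library 2 was higher in every type. A UMI was found in 35.7% of vein-like cells in library 1 (95% exact binomial interval 28.5% to 43.5%) and 64.3% in library 2 (56.7% to 71.5%). In lymphatic-like cells, which had similar or greater depth (medians of 9209 and 10310 UMIs per cell, against 8308 and 8528 UMIs in vein-like cells), the shares were 6.39% and 13.3%. Positive cells held a mean of 5.78 and 7.43 UMIs in vein-like cells, and 2.00 and 2.73 UMIs in lymphatic-like cells. In edgeR's quasi-likelihood test with Benjamini-Hochberg adjustment over all genes, vein-like cells exceeded the next type, artery-like cells, by 0.49 ± 0.14 on the log2 scale (SE, adjusted p = 0.0223). Artery-like over tip-like cells (adjusted p = 0.0646) and tip-like over capillary-like cells (adjusted p = 0.354) missed the threshold of 0.05. Capillary-like over lymphatic-like cells differed by 3.00 ± 0.17 (adjusted p = 5.82e-09).

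Cxcl10, the interferon-induced ligand of CXCR3 on activated T cells, was concentrated in few, strongly positive cells. Its level was 209 and 504 CPM in vein-like cells, 91.3 and 116 CPM in capillary-like, 27.5 and 44.1 CPM in tip-like, 4.75 and 26.7 CPM in artery-like and 5.28 and 20.4 CPM in lymphatic-like cells. Both libraries had vein-like cells highest and capillary-like cells second. UMIs were found in 17.9% (12.4% to 24.5%) and 36.8% (29.6% to 44.5%) of vein-like cells, against 0.752% and 3.06% of lymphatic-like cells. Positive vein-like cells held a mean of 11.4 and 14.0 UMIs and up to 80 and 94. The order of neighbouring types held in edgeR for vein-like over capillary-like (1.75 ± 0.23, adjusted p = 0.000173), capillary-like over tip-like (1.64 ± 0.30, adjusted p = 0.00681) and, narrowly, tip-like over artery-like cells (1.16 ± 0.40, adjusted p = 0.0489). Artery-like and lymphatic-like cells did not differ beyond their spread (adjusted p = 0.674).

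Cxcl16, a membrane-anchored ligand of CXCR6 that is also a scavenger receptor, was highest in vein-like cells too, but went against the shift between libraries. It stood at 149.5 and 54.5 CPM in vein-like cells, 13.7 and 10.2 CPM in capillary-like, 6.86 and 7.97 CPM in tip-like, 1.78 and 2.27 CPM in artery-like and 0.330 and 0.728 CPM in lymphatic-like cells. Vein-like cells were above all other types in both libraries, but library 1, not library 2, was the higher one, with a library 2 to library 1 ratio of 0.365. UMIs were found in 57.1% (49.3% to 64.7%) and 25.1% (18.8% to 32.3%) of vein-like cells, and in 0.376% and 0.899% of lymphatic-like cells. After each cell was thinned to 4000 UMIs, the shares in vein-like cells were 35.6% and 15.6%. Positive vein-like cells held a mean of 2.54 and 2.21 UMIs. Vein-like cells exceeded capillary-like cells by 3.00 ± 0.29 on the log2 scale (edgeR, adjusted p = 1.09e-05). Capillary-like against tip-like (adjusted p = 0.643) and artery-like against lymphatic-like cells (adjusted p = 0.211) did not differ beyond their spread, and tip-like cells were above artery-like cells by 2.00 ± 0.67 (adjusted p = 0.0449).

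Cx3cl1 (fractalkine), the other membrane-anchored chemokine, whose receptor CX3CR1 is carried by monocytes, was highest in artery-like and not in vein-like cells. Its level was 29.1 and 24.4 CPM in artery-like cells, 15.4 and 10.9 CPM in tip-like, 11 and 14.9 CPM in vein-like, 8.48 and 12.2 CPM in capillary-like and 0.661 and 0.583 CPM in lymphatic-like cells. Artery-like cells were highest in both libraries, and the libraries differed little. UMIs were found in 18.0% (13.1% to 23.7%) and 15.3% (10.9% to 20.5%) of artery-like cells although these were the shallowest type (medians of 6648 and 6118 UMIs per cell). The share was 0.752% and 0.719% in lymphatic-like cells. Positive cells held a mean of 1 to 1.53 UMIs in every type and library. At counts this low the mean stays near its minimum of 1, so it cannot separate the types. Artery-like cells exceeded tip-like cells by 1.11 ± 0.29 (edgeR, adjusted p = 0.0131). Tip-like, vein-like and capillary-like cells did not differ beyond their spread (adjusted p = 0.864 and 0.663 for the neighbours), and capillary-like cells exceeded lymphatic-like cells by 4.06 ± 0.48 (adjusted p = 1.04e-05).

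Ccl2 and Ccl7 are neighbours on chromosome 11 that both signal through CCR2 and recruit monocytes. At full depth both were found in a larger share of lymphatic-like cells than of any other type, in both libraries. For Ccl2 this order of shares did not hold in library 2 after thinning to 4000 UMIs per cell. Ccl7 had 32 and 263 UMIs in lymphatic-like cells (10.6 and 38.3 CPM). In the 4 blood types together it had 0 UMIs in library 1 and 1 UMI in library 2, in a capillary-like cell. It was therefore at least 21.2-fold higher in CPM in lymphatic-like cells in library 1, counted against a floor of 3 UMIs over the 4 types, and 319.5-fold higher in library 2 (95% counting interval 56.8 to 12667). UMIs were found in 6.39% (3.77% to 10.0%) and 9.17% (6.91% to 11.9%) of lymphatic-like cells. In artery-like cells, a count of 0 cells allows a share of cells with a UMI of up to 1.38% in library 1 and up to 1.27% in library 2, which does not limit the share of cells expressing the gene. These intervals and floors cover counting error only. Ccl7 passed the filter on low counts only through the lymphatic-like sums, so its counts are given with no test.

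Ccl2, unlike Ccl7, was also found in blood types. Its level was 75.5 and 158 CPM in tip-like cells, 56.8 and 123 CPM in lymphatic-like, 2.45 and 62.6 CPM in vein-like, 5.87 and 48.1 CPM in capillary-like and 0 and 2.27 CPM in artery-like cells, and 54.4 and 171 CPM in cells without a type. Tip-like and lymphatic-like cells were above the other types in both libraries, and the level in vein-like cells was 25.5 times as high in library 2 as in library 1. The share of positive cells was larger in lymphatic-like cells, at 16.9% (12.6% to 22.0%) and 21.9% (18.6% to 25.6%), than in tip-like cells, at 6.31% (2.57% to 12.6%) and 15% (10.5% to 20.5%). After thinning to 4000 UMIs per cell, the shares were 8.78% and 10.2% in lymphatic-like cells, against 3.70% and 11.2% in tip-like cells. The order thus turned in library 2. Positive tip-like cells held a mean of 12.6 and 11.8 UMIs, against 3.82 and 6.91 UMIs in lymphatic-like cells. A few cells carried much of the signal: the 5 highest cells held 97.7% and 55.7% of the Ccl2 UMIs of tip-like cells and 57.0% and 67.9% of those of lymphatic-like cells, where 1 cell of library 2 held 466. Tip-like and lymphatic-like cells did not differ beyond their spread in edgeR (0.35 ± 0.35, adjusted p = 0.487). Lymphatic-like cells exceeded vein-like cells by 1.54 ± 0.41 (adjusted p = 0.00849), vein-like and capillary-like cells did not differ beyond their spread (adjusted p = 0.856), and capillary-like exceeded artery-like cells by 4.52 ± 0.98 (adjusted p = 0.00504). With each cell's UMIs of these genes capped at 10, tip-like and lymphatic-like cells still passed against the other types.

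Within lymphatic-like cells, Ccl2 was more frequent in cells with Ccl7 than in cells without it. Ccl2 had a UMI in 41.2% and 58.8% of lymphatic-like cells with Ccl7, against 15.3% and 18.2% of those without. Median depths were 9095 and 13396 UMIs in cells with Ccl7, against 9209 and 9975 UMIs in those without, so depth differed in library 2 and hardly in library 1. Most lymphatic-like cells with Ccl2 lacked Ccl7, which was found in 15.6% and 24.6% of them, against 4.52% and 4.84% of those without Ccl2. Cells with Ccl2 were deeper in both libraries, at 14979 and 15585 UMIs against 8520 and 9455 UMIs. The part of depth in this overlap was not tested.

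Il6, a cytokine that acts through the shared receptor subunit gp130 (Il6st), was highest in vein-like and artery-like cells. Its level was 74.1 and 223 CPM in vein-like cells, 61.1 and 82.3 CPM in artery-like, 11.7 and 40.4 CPM in capillary-like, 0.858 and 12.6 CPM in tip-like and 0.330 and 2.19 CPM in lymphatic-like cells. The order was the same in both libraries, but in library 1 tip-like and lymphatic-like cells held 1 UMI each, so their order there is not read. UMIs were found in 22.0% (16% to 29.1%) and 44.4% (36.9% to 52.2%) of vein-like cells and in 15.7% and 19.1% of artery-like cells, against 0.376% and 1.98% of lymphatic-like cells. All neighbouring types differed in edgeR: vein-like over artery-like by 0.98 ± 0.25 (adjusted p = 0.0136), artery-like over capillary-like by 1.53 ± 0.31 (adjusted p = 0.00316), capillary-like over tip-like by 1.83 ± 0.45 (adjusted p = 0.0404) and tip-like over lymphatic-like by 2.4 ± 0.65 (adjusted p = 0.0109). The last of these rests on library 2, with 30 UMIs in tip-like and 15 UMIs in lymphatic-like cells.

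Csf3, which encodes the granulocyte colony-stimulating factor G-CSF, was highest in vein-like cells and differed strongly between libraries, with a library 2 to library 1 ratio of 13.8 in those cells. It stood at 9.80 and 135 CPM in vein-like cells, 0 and 15.5 CPM in capillary-like, 0 and 6.29 CPM in tip-like, 0 and 1.70 CPM in artery-like and 0.330 and 0.437 CPM in lymphatic-like cells. Vein-like cells were highest in both libraries, with 16 UMIs in 6 cells in library 1 and 235 UMIs in 42 cells in library 2. That was 3.57% (1.32% to 7.61%) and 24.6% (18.3% to 31.7%) of vein-like cells, against 0.376% and 0.540% of lymphatic-like cells. Vein-like cells exceeded capillary-like cells by 3.27 ± 0.31 (edgeR, adjusted p = 1.09e-05). The remaining neighbours did not differ beyond their spread (adjusted p = 0.234 for capillary-like against tip-like, 0.15 for tip-like against artery-like and 0.366 for artery-like against lymphatic-like cells).

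The tests between neighbouring types are read against how many genes differ between each pair of types. Of all 10493 genes tested, edgeR called 19.7% between vein-like and artery-like, 11.3% between vein-like and capillary-like, 19.1% between vein-like and tip-like, 16.6% between artery-like and capillary-like, 23.7% between artery-like and tip-like and 3.03% between capillary-like and tip-like cells. Against lymphatic-like cells it called 34.6% for vein-like, 43% for artery-like, 34.2% for capillary-like and 32.7% for tip-like cells.

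**Figure D2:**
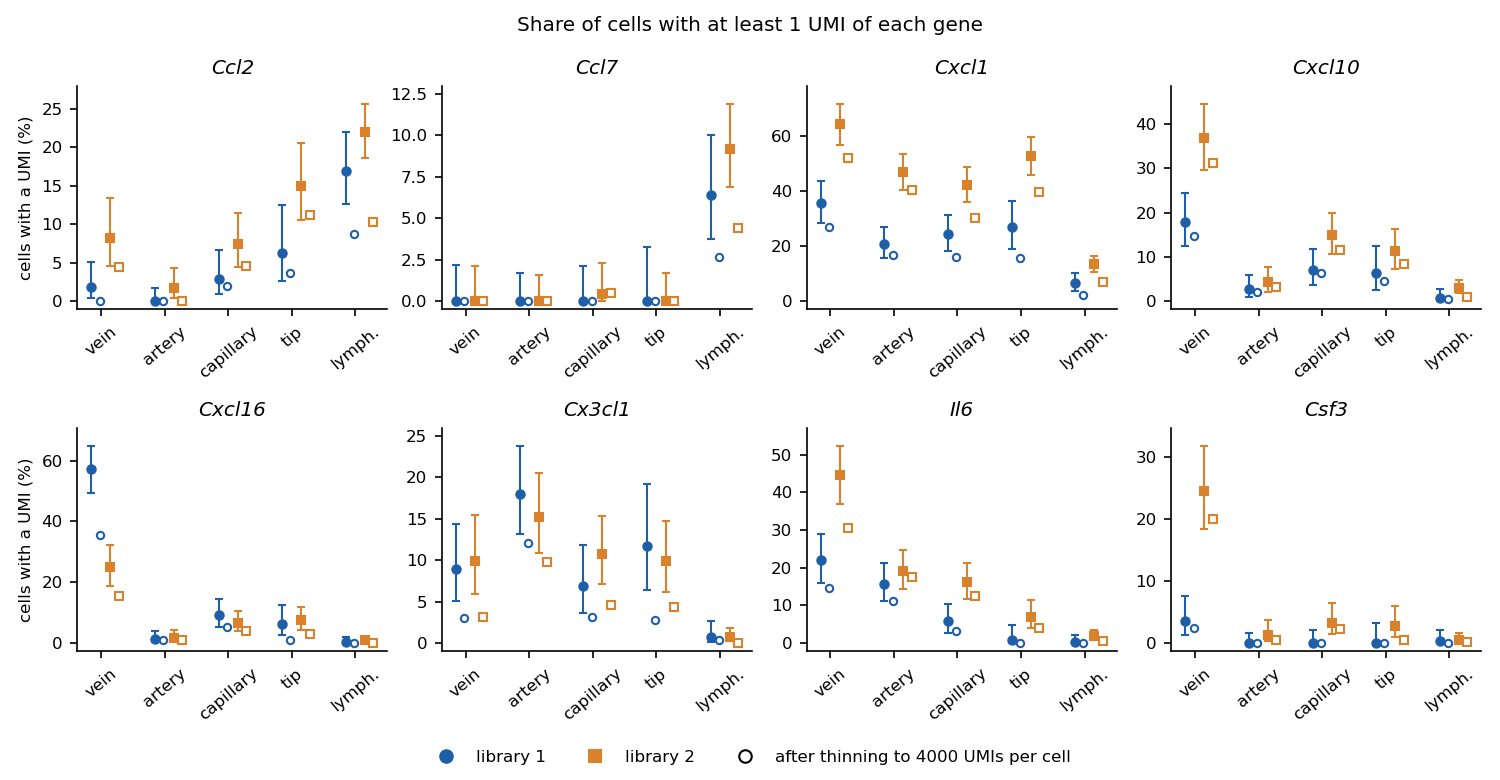
Share of cells with at least 1 UMI of each gene (y axis, percent, own scale per gene) by type (x axis) and library. Filled symbols show all UMIs with 95% exact binomial intervals, and open symbols show the share after thinning each cell to 4000 UMIs; the shares for Cxcl1, Cxcl10, Cxcl16, Il6 and Csf3 were highest in vein-like cells before and after thinning, in each library.

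A low share of UMI-positive cells can come from free RNA in the droplets. In lymphatic-like cells the shares of Cxcl10, Cxcl16, Cx3cl1, Il6 and Csf3 were 0.376% to 3.06%, and those of Ccl2 in artery-like cells were 0% and 1.69%, so shares of that size are not read as expression. Cxcl1 was at 6.39% and 13.3% of lymphatic-like cells. Haemoglobin-bearing cells, left out of the types, could not serve as a group without these genes, since 100% of the 27 and 39 such cells carried the endothelial gene Pecam1. They held Cxcl1 in 25.9% and 56.4% of cells.

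**Figure D3:**
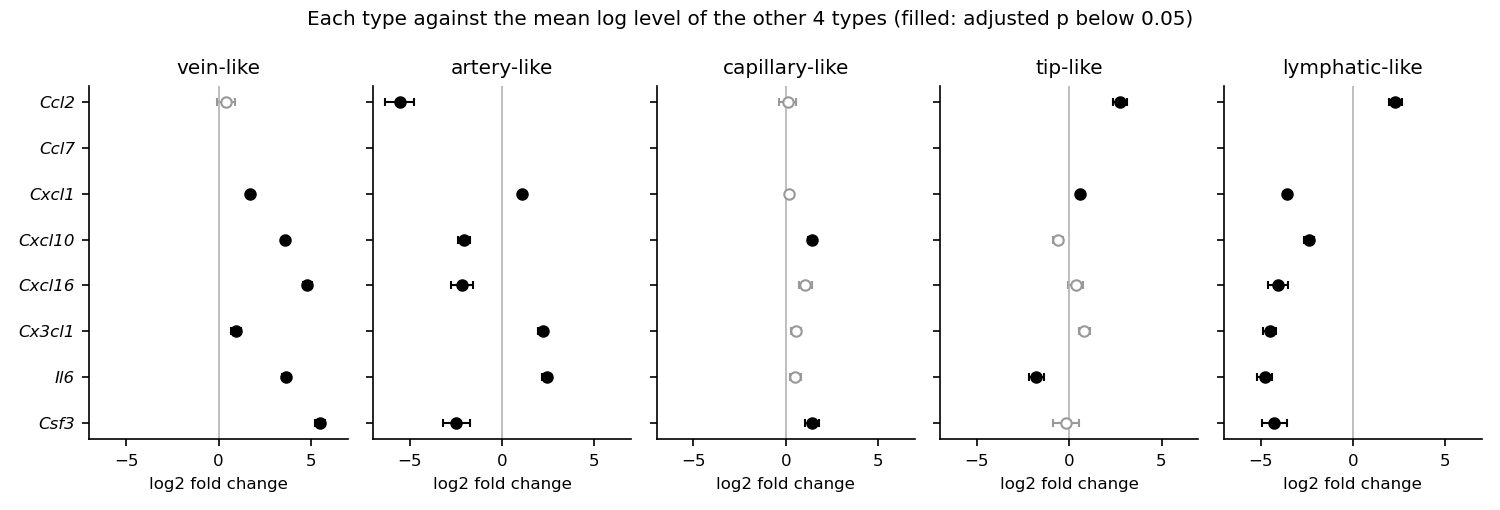
Log2 fold change (x axis) of each gene (rows) in each type against the mean log level of the other 4 types, with bars of ± 1 SE from edgeR on 10 sums of UMIs (5 types in 2 libraries). Filled points passed an adjusted p of 0.05; Ccl7 is left out because it had at most 1 UMI in the blood types, where a fitted fold depends on the prior count.

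Set against the mean log level of the other 4 types, vein-like cells were higher for 6 of the 8 genes and lower for none, in a comparison that called 18% of all 10493 genes tested (12.1% higher and 5.83% lower). Ccl7 counts among the 8, but its fit is not read in any type, so no median over the genes is given. Changes are on the log2 scale. Csf3 (5.51 ± 0.26, adjusted p = 4.13e-09), Cxcl16 (4.82 ± 0.24, adjusted p = 4.79e-09), Il6 (3.64 ± 0.22, adjusted p = 3.38e-08) and Cxcl10 (3.61 ± 0.18, adjusted p = 4.72e-09) differed most, followed by Cxcl1 (1.70 ± 0.11, adjusted p = 4.71e-08) and Cx3cl1 (0.95 ± 0.29, adjusted p = 0.0335). The last of these was lost in DESeq2. Ccl2 did not pass (0.38 ± 0.49, adjusted p = 0.676). Artery-like cells were higher for Il6 (2.42 ± 0.26, adjusted p = 6.53e-06), Cx3cl1 (2.19 ± 0.24, adjusted p = 9.78e-06) and Cxcl1 (1.08 ± 0.11, adjusted p = 4.37e-06), and lower for Ccl2, Cxcl10, Cxcl16 and Csf3. In that comparison 27.2% of all genes were called (15.4% higher and 11.8% lower). The artery-like Csf3 call was lost in DESeq2.

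Capillary-like cells were higher for 2 of the 8 genes, where 10.7% of all genes were called (7.26% higher and 3.44% lower). These were Cxcl10 (1.43 ± 0.21, adjusted p = 0.000416) and Csf3 (1.42 ± 0.40, adjusted p = 0.0361). Neither held throughout: Cxcl10 lost its call with the stricter cell filter (0.34, edgeR adjusted p = 0.55), and Csf3 lost it in DESeq2 and turned to -1.03 with library 1 alone. Tip-like cells were higher for Ccl2 (2.75 ± 0.36, adjusted p = 9.47e-05) and Cxcl1 (0.59 ± 0.12, adjusted p = 0.00267) and lower for Il6 (-1.78 ± 0.41, adjusted p = 0.0075), where 16.1% of all genes were called (9.74% higher and 6.39% lower). The Cxcl1 and Il6 calls were lost with the stricter cell filter and without library as a block. The Il6 call was also lost in cells with no Sele UMI. Lymphatic-like cells were higher for Ccl2 (2.31 ± 0.34, adjusted p = 7.04e-05) and lower for the 6 genes other than Ccl2 and Ccl7, with log2 changes of -2.36 (Cxcl10) to -4.79 (Il6). This comparison called 45.8% of all genes (23.2% higher and 22.6% lower).

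Cells that held several of the 8 genes were most frequent among vein-like cells. At least 1 was found in 79.2% and 84.2% of vein-like cells, 41.9% and 61.9% of artery-like, 41.0% and 57.4% of capillary-like, 43.2% and 64.8% of tip-like and 26.7% and 36.9% of lymphatic-like cells. At least 3 were found in 20.2% and 40.4% of vein-like cells and in at most 13.2% of the cells of any other type and library. The highest number in 1 cell was 6, in a vein-like cell of library 2. Among vein-like cells, Cxcl1 was found in 59.5% and 81.6% of cells with Il6, against 29.0% and 50.5% of cells without it. Cells with Il6 were deeper, with medians of 11066 and 10734 UMIs, against 7583 and 7068 UMIs without it, and the part of depth in this difference was not tested. Csf3-positive vein-like cells of library 2 held Il6 in 73.8% of cases, against 34.9% of Csf3-negative cells. The Csf3-positive cells were deeper, with a median of 10840 UMIs against 7695 UMIs, and the part of depth was not tested here either. Vein-like cells with Cxcl16 held Cxcl10 in 14.6% and 32.6% of cases, against 22.2% and 38.3% of those without, and Cxcl1 in 36.5% and 65.1%, against 34.7% and 64.1%, although the cells with Cxcl16 were deeper (8614 and 10073 UMIs against 7927 and 8165 UMIs). They held Il6 in 22.9% and 58.1% of cases, against 20.8% and 39.8% of those without, and Csf3 in 3.12% and 34.9%, against 4.17% and 21.1%, so that cells with Cxcl16 were the higher ones for Il6 and Csf3 in library 2.

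**Figure D4:**
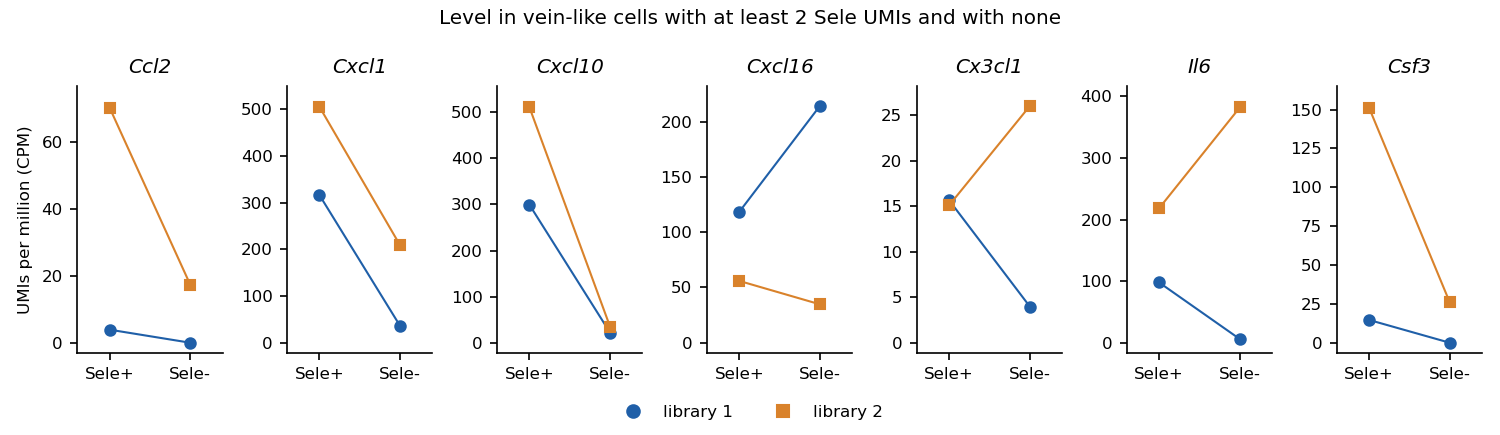
Level in CPM (y axis, own scale per gene) of 7 genes in vein-like cells with at least 2 Sele UMIs (99 and 138 cells) and in those with none (57 and 21 cells), with library 1 as circles and library 2 as squares joined by lines. Cxcl1, Cxcl10, Ccl2 and Csf3 were higher in Sele+ cells in both libraries, while Cxcl16, Cx3cl1 and Il6 moved in opposite directions in the 2 libraries.

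Vein-like cells with and without E-selectin mRNA differed in which of the genes they held. Cxcl10 was at 299 and 511 CPM in vein-like cells with at least 2 Sele UMIs, against 21.8 and 34.7 CPM in those with none. Cxcl1 was at 316 and 505 CPM in Sele+ cells, against 35.7 and 208 CPM in Sele- cells. Csf3 was at 14.7 and 151 CPM in Sele+ cells, against 0 and 26.0 CPM in Sele- cells. For each of these, both libraries were higher in Sele+ cells. Cxcl16 was at 118 and 55.9 CPM in Sele+ cells, against 214 and 34.7 CPM in Sele- cells, and Il6 was at 97.8 and 218 CPM, against 5.95 and 382 CPM. The Il6 value of Sele- cells rests on 3 UMIs in 2 cells of library 1 and 44 UMIs in 5 cells of library 2. The Sele- cells of library 2 number 21, at a median depth of 5218 UMIs, against 9505 UMIs in Sele+ cells, and these differences within vein-like cells were not tested.

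The comparison of types was repeated on cells with no Sele UMI in every type, an alternative chosen after seeing the data. Cxcl10 (-0.04, edgeR adjusted p = 1) and Cxcl1 (-0.14, adjusted p = 0.847) then no longer differed between vein-like cells and the other types, and Ccl2 (-2.35, adjusted p = 0.149) and Cx3cl1 (0.28, adjusted p = 0.897) did not pass either. Cxcl16 (5.31, adjusted p = 1.2e-09) and Il6 (3.30, adjusted p = 0.0025) kept their calls. For Il6 the libraries did not go together: the vein-like cells without a Sele UMI had 5.95 CPM in library 1 and 382 CPM in library 2, where 5 cells held all 44 UMIs. Csf3 was filtered out for low counts. With the vein gate rebuilt without Selp and Lrg1, genes that respond to inflammation, the calls of the 8 genes in vein-like cells stayed as they were, and the uncalled Ccl2 value was -0.08.

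Sele+ cells outside the vein gate were compared next. In non-venous blood endothelial cells, 82 and 221 cells had at least 2 Sele UMIs and 779 and 979 had none. Cxcl10 was at 176 and 270 CPM in Sele+ cells, against 52.4 and 122 CPM in Sele- cells (1.38 ± 0.10, edgeR adjusted p = 3.95e-41), and was found in 25.6% and 34.8% of cells, against 5.65% and 9.70%. Cxcl1 was at 178 and 580 CPM in Sele+ cells, against 88.0 and 317 CPM in Sele- cells (0.93 ± 0.09, adjusted p = 1.96e-21). Both genes were higher in Sele+ cells in both libraries, as was Cxcl16 at 30.1 and 13.2 CPM against 11.4 and 6.92 CPM (1.17 ± 0.24, adjusted p = 3.37e-05, lost in DESeq2). Csf3 was at 2.66 and 19.6 CPM against 0 and 3.58 CPM (2.61 ± 0.38, adjusted p = 3.54e-10), a call lost with the stricter cell filter. In library 1 Csf3 had 3 UMIs in cells without a type and 0 in artery-, capillary- and tip-like cells, so its call rests on library 2. Il6 passed narrowly, at 22.2 and 60.7 CPM in Sele+ cells against 21.2 and 44.1 CPM in Sele- cells (0.39 ± 0.14, adjusted p = 0.0431), and also lost its call in DESeq2, with 0.07 in library 1 alone.

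Ccl2 and Cx3cl1 behaved differently in that comparison. Ccl2 was called higher (0.62 ± 0.11, adjusted p = 4.53e-07), but was at 6.20 and 204 CPM in Sele+ cells, against 45.7 and 93.6 CPM in Sele- cells. The libraries thus went in opposite directions, with -2.79 in library 1 alone, and DESeq2 gave -0.81 without a call. Cx3cl1 was at 12.4 and 14.9 CPM in Sele+ cells, against 16.4 and 14.3 CPM in Sele- cells, and did not pass (-0.08 ± 0.23, adjusted p = 0.885). In all, 6 of 7 genes tested were higher and none lower, in a comparison that called 15.1% of 11109 genes (7.12% higher and 7.93% lower). Ccl7 did not pass the filter on low counts there. This fit rests on 4 sums with 1 residual degree of freedom, and without library as a block none of the 6 calls remained (for Cxcl10, adjusted p = 0.129).

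Sele+ non-venous cells differed from Sele- cells in depth and makeup, and their part in these differences was not tested. Median depths were 12532 and 11861 UMIs in Sele+ cells, against 7444 and 7460 UMIs in Sele- cells. Cells without a type made up 73 of 82 and 153 of 221 Sele+ cells, against 297 of 779 and 389 of 979 Sele- cells. The vein marker Selp was at 144.5 and 130 CPM in Sele+ cells, against 8.35 and 4.04 CPM in Sele- cells, while Ackr1 was at 3.55 and 0.675 CPM, against 1.46 and 0 CPM. Within capillary-like cells alone, a split chosen after seeing the data, Cxcl1 (0.91), Cxcl10 (1.94) and Ccl2 (2.08) were called higher and Cxcl16 (0.22, edgeR adjusted p = 0.96) and Il6 (0.38, adjusted p = 0.77) were not. Within cells without a type alone, likewise chosen after seeing the data, Cxcl1 (0.97), Cxcl10 (0.66), Cxcl16 (0.98) and Il6 (0.79) were called higher, and Ccl2 (0.08) and Csf3 (1.16, adjusted p = 0.27) were not.

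**Figure D5:**
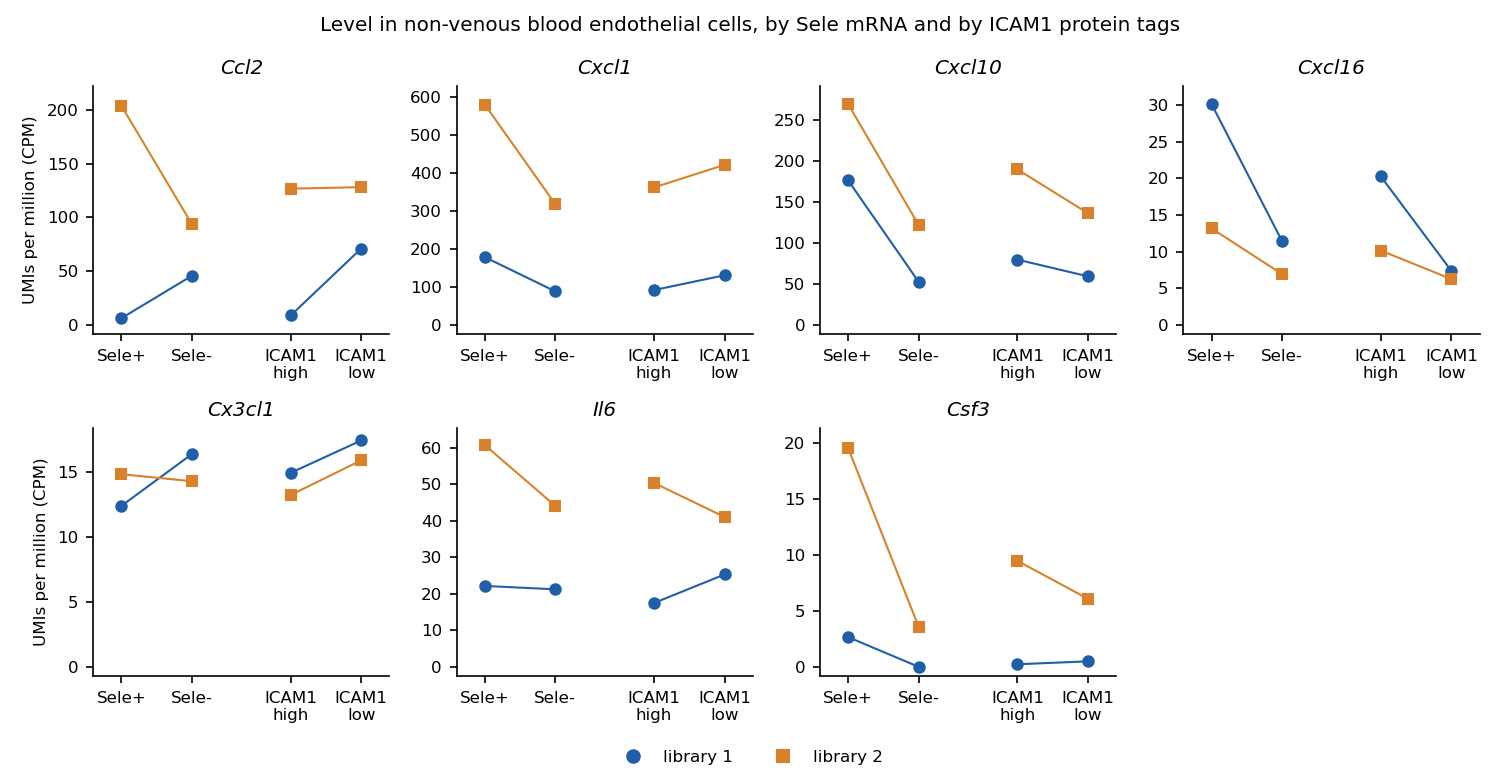
Level in CPM (y axis, own scale per gene) of 7 genes in non-venous blood endothelial cells, for Sele+ against Sele- cells and for cells with high against low ICAM1 protein tags, with each library's pair joined by a line. Cxcl10 and Cxcl16 were higher in Sele+ and in ICAM1-high cells in both libraries, whereas Cxcl1 was higher in Sele+ but lower in ICAM1-high cells, a direction that turned when cells were split by the undivided ICAM1 tag count.

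Surface ICAM1, a ligand of leukocyte integrins, was read from antibody tags, and non-venous blood cells were split at the median ICAM1 share of the 5 antibody tags within library and type. The 442 and 624 ICAM1-high cells had median counts of 126 and 157.5 ICAM1 tags, against 52 and 72 tags in the 440 and 623 ICAM1-low cells, at similar mRNA depth (8148 and 8327 UMIs against 7869 and 8397 UMIs). Cxcl16 was at 20.3 and 10.1 CPM in ICAM1-high cells, against 7.37 and 6.24 CPM in ICAM1-low cells (1.07 ± 0.22, edgeR adjusted p = 0.000244). Cxcl10 was at 79.6 and 190 CPM in ICAM1-high cells, against 59.2 and 136 CPM in ICAM1-low cells (0.46 ± 0.07, adjusted p = 7.95e-07). Both calls were lost in DESeq2, although both libraries went the same way. Cxcl1 was at 91.6 and 362 CPM in ICAM1-high cells, against 131 and 421 CPM in ICAM1-low cells (-0.31 ± 0.06, adjusted p = 4.98e-05), but its direction turned to 0.37 (adjusted p = 1.96e-07) when cells were split by the ICAM1 tag count undivided. Ccl2 was called lower (-0.55 ± 0.18, adjusted p = 0.031), at 8.74 and 127 CPM in ICAM1-high cells against 71.0 and 128 CPM in ICAM1-low cells, and library 2 alone gave -0.02. Cx3cl1, Il6 and Csf3 did not pass (adjusted p = 0.377, 0.822 and 0.322). Of 7 genes tested, 2 were higher and 2 lower, in a comparison that called 14.6% of 11218 genes (7.02% higher and 7.55% lower). Without library as a block none of the 4 calls remained (for Cxcl16, edgeR adjusted p = 0.275).

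Most receptors for these factors were at low counts in the same cells. Ccr1, Ccr2, Ccr3, Cx3cr1 and Cxcr6 had 0 UMIs in all 5 types, and 5 of 15 listed receptors and scavengers were high enough to test. Il6st, the gp130 subunit, was at 377 and 438 CPM in vein-like cells, against 61.4 to 134 CPM in the other types (2.05 ± 0.11, edgeR adjusted p = 9.83e-09). Decoy receptors that bind chemokines without G protein signalling were split over the types. Ackr2, which takes up inflammatory CC chemokines in lymphatic endothelium, was at 35.1 and 46.5 CPM in lymphatic-like cells, against at most 1.66 CPM elsewhere. It passed the filter on low counts only through the lymphatic-like sums, so its level is given with no test. Ackr4 was at 28.5 and 18.7 CPM in artery-like cells, against at most 5.69 CPM elsewhere. Its pass of that filter came only through the artery-like sums, so no test is given for it either. Ackr3, a decoy for CXCL12, was called higher in vein-like cells (1.66 ± 0.44, adjusted p = 0.0166) at 266 CPM in library 1 but 16.8 CPM in library 2. Ackr1, the venular chemokine transporter, was a gate marker, so its level in vein-like cells was no finding. In all, 3 of 5 were higher in vein-like cells (Ackr1 included), 1 in artery-like (Ackr4), 0 in capillary-like, 0 in tip-like and 2 in lymphatic-like cells (Ackr2 included), while 2 were lower in capillary-like and 1 in tip-like cells. Of all genes, 18%, 27.2%, 10.7%, 16.1% and 45.8% were called in these comparisons in the same order, and the 2 of 5 in lymphatic-like cells are near their share.

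Of 24 other chemokines listed, 6 were tested. Cxcl12, a homeostatic chemokine, marked artery-like cells at 1491 and 1369 CPM, against 1.58 to 457 CPM in the other types (5.19 ± 0.16, edgeR adjusted p = 2.48e-11), was lower in vein-like cells (-1.68 ± 0.27, adjusted p = 0.000531), and was lower in Sele+ than in Sele- non-venous cells (-3.82 ± 0.12, adjusted p = 1.22e-208). Cxcl2, the neutrophil chemokine gene next to Cxcl1, was called higher in artery-like cells (0.99 ± 0.19, adjusted p = 0.00138), at 9.89 and 134 CPM. It was also called higher in tip-like cells (0.78 ± 0.20, adjusted p = 0.014), at 20.7 and 99.7 CPM. In library 1 artery-like cells were below tip-like and capillary-like cells, so they were highest in library 2 only. Cxcl2 was higher in Sele+ cells (1 ± 0.12, adjusted p = 4.52e-16), but not called in vein-like cells. Cxcl9, like Cxcl10 a ligand of CXCR3, was called higher in vein-like cells (4.59 ± 0.96, adjusted p = 0.00418), at 3.01 and 27.4 CPM against 0 to 8.29 CPM. Its 5 UMIs in vein-like cells of library 1 were below those of tip-like and capillary-like cells of that library in CPM, so the call rests on library 2. Ccl5 was called higher in tip-like cells (2.49 ± 0.69, adjusted p = 0.023), at 2.49 and 84.3 CPM, and in lymphatic-like cells (2.76 ± 0.61, adjusted p = 0.00182), at 46.1 and 52.5 CPM. The tip-like value of library 1 was 3 UMIs and below that of vein-like cells in CPM, so the tip-like call rests on library 2. Among 14 other cytokines and colony-stimulating factors, 5 passed the filter on low counts. Il7, a survival factor for lymphocytes, was at 80.9 and 68.9 CPM in lymphatic-like cells, against at most 3.01 CPM in the other types. It passed that filter only through the lymphatic-like sums, so its level is given with no test. Csf1, the macrophage growth factor, was higher in vein-like (1.21 ± 0.18, adjusted p = 0.00019), capillary-like (0.97 ± 0.17, adjusted p = 0.00169) and artery-like cells (0.54 ± 0.19, adjusted p = 0.044) and lower in lymphatic-like cells (-2.52 ± 0.20, adjusted p = 1.23e-07).

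Genes that sense inflammatory signals and genes of the NF-kB response followed, where 18% of all genes were called in vein-like cells, 45.8% in lymphatic-like, 15.1% in Sele+ and 14.6% in ICAM1-high cells. Of 16 receptors and adaptors upstream of NF-kB that were tested, 6 were higher and 0 lower in vein-like cells, with a median of 0.53 against 0.02 over all genes, and 1 was higher and 8 lower in lymphatic-like cells, with a median of -0.58 against 0.01. The interleukin 1 receptor Il1r1 was at 42.8 and 46.0 CPM in vein-like cells, against 0.741 to 33.9 CPM in the other types (2.30 ± 0.20, edgeR adjusted p = 1.13e-06), and at 0.948 and 0.741 CPM in lymphatic-like cells (-4.83 ± 0.31, adjusted p = 1.06e-08). The tumour necrosis factor receptor Tnfrsf1a was higher in vein-like (1.21 ± 0.07, adjusted p = 3.45e-08) and lower in lymphatic-like cells (-2.62 ± 0.09, adjusted p = 2.96e-11). Of 16 NF-kB subunits and feedback genes, 9 were higher and 0 lower in vein-like cells (median 0.45), among them the inhibitors Nfkbia (1.48 ± 0.06, adjusted p = 7.51e-10) and Tnfaip3 (1.80 ± 0.13, adjusted p = 1.65e-07). In lymphatic-like cells 1 was higher and 12 lower (median -1.15), and in Sele+ non-venous cells 7 were higher and 0 lower (median 0.29). In ICAM1-high cells 0 were higher and 3 lower (median -0.06), a share near that of all genes.

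The lists of other response genes are set beside the shares of all genes called, which were 18% in vein-like, 27.2% in artery-like, 10.7% in capillary-like, 16.1% in tip-like, 45.8% in lymphatic-like and 15.1% in Sele+ cells. Of 23 immediate-early and stress genes, 18 were higher and 0 lower in vein-like cells (median 0.95), 11 higher and 1 lower in artery-like, 1 higher and 0 lower in capillary-like, 0 higher and 7 lower in tip-like and 1 higher and 20 lower in lymphatic-like cells (median -1.08), and 17 were higher and 0 lower in Sele+ cells. These genes also differed between the libraries, and their part in the differences of the chemokine genes was not tested. Of 23 interferon response genes, 7 were higher and 1 lower in vein-like cells (median 0.31), 14 higher and 1 lower in artery-like (median 0.71), 1 higher and 14 lower in lymphatic-like cells (median -0.88), and 2 higher and 6 lower in Sele+ cells (median -0.11). Irf1, a transcription factor induced by both interferon and NF-kB, was higher in vein-like cells (2.23 ± 0.08, edgeR adjusted p = 2.6e-10) and in Sele+ cells (1.33 ± 0.09, adjusted p = 2.34e-46), whereas the antiviral gene Rsad2 was lower in both (-1.62, adjusted p = 0.0145, and -1.47, adjusted p = 5.82e-28). Cxcl10 was higher in Sele+ cells, where 2 of 23 interferon response genes were higher, 6 were lower and 15 did not pass. The part of interferon in its level was not tested.

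For the remaining lists the same shares of all genes hold, with 18% in vein-like, 27.2% in artery-like, 45.8% in lymphatic-like and 15.1% in Sele+ cells. Of 13 leukocyte adhesion genes tested, 8 were higher and 3 lower in vein-like cells, including the gate marker Selp, and 1 was higher and 10 lower in lymphatic-like cells. Sele, at 657 and 1572 CPM in vein-like cells against 0 to 171 CPM elsewhere, was among the former (7.08, edgeR adjusted p = 8.14e-12). Of 10 genes for mRNA decay of inflammatory transcripts, 4 were higher and 0 lower in vein-like cells (median 0.22), among them Zc3h12a (2.17 ± 0.17, adjusted p = 4.72e-07) and Zfp36 (1.28 ± 0.11, adjusted p = 1.3e-06), 1 was higher and 4 lower in lymphatic-like cells, near the share of all genes, and 4 were higher and 0 lower in Sele+ cells. Of 13 sheddases and glycosaminoglycan synthesis genes, 2 were higher and 3 lower in vein-like cells, 5 higher and 1 lower in artery-like and 6 higher and 3 lower in lymphatic-like cells. Adam10, which cleaves both membrane-anchored chemokines, was lower in vein-like cells (-0.52 ± 0.09, adjusted p = 0.000909), where Cxcl16 was highest. Adam17, the other such protease, was higher in artery-like cells (0.72 ± 0.13, adjusted p = 0.000711), where Cx3cl1 was highest.

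The genes with the most similar profiles over the 10 sums of type and library are given as a description, with Pearson's r of log2(CPM + 1) among 8016 genes. The 10 sums come from 2 libraries and are not independent. Cxcl10 was closest to Sele (r = 0.964), Il6 to Stat3 (r = 0.961), which encodes the transcription factor downstream of gp130, and Cxcl1 to Sh3bgrl (r = 0.976) and to Cflar (r = 0.975), an inhibitor of caspase 8. Cxcl16 was closest to Ogfrl1 (r = 0.971), Csf3 to Pnrc1 (r = 0.973), Cx3cl1 to Deptor (r = 0.992), Ccl2 to Serbp1 (r = 0.957) and Ccl7 to Cyp20a1 (r = 0.986).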

How the data were processed

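Single-cell mRNA and antibody tag libraries of 2 biological replicates were used. The mRNA matrices hold deposited UMI counts per gene and barcode, which the authors made with Cell Ranger and mm10 (per the submitters' processing notes, which also name Seurat 3.0.2 without a role). For antibodies, deposited counts per barcode were used. The sources used here do not give whether those are UMIs or reads, nor the rule by which barcodes were kept. Whether counting used strand is not given either.

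The 8 genes, the gene lists, the markers and the alternatives were chosen with earlier results of these data known. Cells with at least 500 genes and at most 10% mitochondrial UMIs were kept. Scrublet (scanpy 1.11.5) called 2 and 11 doublets, which were removed. No correction for free RNA was made. Cells with at least 3 markers of a non-endothelial set at 2 UMIs or more were left out. A type was given where the mean z score of a marker set, within library, was highest, at least 0.5 and led by 0.25; 310 and 492 cells lay within 0.1 of a cut-off. Non-venous blood cells were artery-, capillary- and tip-like cells and cells without a type whose lymphatic score was below 0. Cells with 1 Sele UMI were left out of the Sele comparison.

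UMIs were summed per library and group and tested with edgeR 4.0.16 in R 4.3.3 (TMM scaling, filterByExpr, quasi-likelihood test, library as block since all groups come from the same libraries, Benjamini-Hochberg over all genes, threshold 0.05). Residual degrees of freedom were 4 for types and 1 for Sele and ICAM1. SE was taken as log2 change over the root of F. Levels of the 8 genes are CPM, UMIs scaled to the total of the group, and those of other genes in lists are TMM-scaled. Intervals of shares are exact (Clopper-Pearson). DESeq2 1.42.0 and other filters, gates and splits were alternatives. Besides the 8 genes, up to 3 higher and 3 lower genes with the smallest adjusted p per list and comparison, and the 3 genes of most similar profile per gene, could be named; Gm17268, Art3, Zmynd15 and other genes named for position, depth or gating fall outside that rule. Scripts were tested on simulated data.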

Additional observations from a re-analysis of the deposited data

Results flagged for a closer look

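Pericyte-like cells entered no comparison, since they carry at least 3 pericyte or smooth muscle markers, yet they held the chemokine genes above what a count of 0 allows. In the 90 and 130 such cells of libraries 1 and 2, Ccl2 was at 90.8 and 279 CPM, Ccl7 at 7.43 and 3.43 CPM, Cxcl1 at 293 and 442 CPM, Cxcl10 at 144 and 255 CPM, Cxcl16 at 20.6 and 8.01 CPM, Cx3cl1 at 9.08 and 10.9 CPM and Il6 at 46.2 and 77.9 CPM. The Ccl7 values rest on 9 and 6 UMIs. Csf3 was at 2.48 CPM on 3 UMIs in library 1, no more than a count of 0 allows, and at 32.6 CPM on 57 UMIs in library 2. These cells also held Pecam1 at 667 and 733 CPM and Cdh5 at 653 and 547 CPM, and had medians of 13011 and 12183 UMIs, and whether such a droplet held 1 cell or several was not tested.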

How the results depend on the processing

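Of 36 called results of the 8 genes, 13 kept direction and call under all alternatives run with a test, and 23 lost the call under at least 1. The 36 include Ccl7 in lymphatic-like cells, which DESeq2 did not call and which is not read as a test result. Those that held throughout include Cxcl16, Il6 and Csf3 in vein-like cells (Csf3 has no value in cells without a Sele UMI), Il6 and Cx3cl1 in artery-like, and Ccl2 in tip-like and lymphatic-like cells. The number of genes called, 1886, 2858, 1123, 1693, 4810, 1672 and 1634 in the vein, artery, capillary, tip, lymphatic, Sele and ICAM1 comparisons, was 1043, 1591, 614, 890, 2729, 295 and 257 in DESeq2 and 899, 1626, 559, 810, 3048, 529 and 741 with a stricter cell filter (1000 genes, 5% mitochondrial UMIs). It was 929 for vein-like cells without a Sele UMI, 246 and 776 for Sele within capillary-like cells and within cells without a type, and 768 with the ICAM1 tag count undivided.

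With no replicate block, so that library is not in the model, 269 genes were called for Sele and 58 for ICAM1, and 19 calls of the 8 genes were lost, among them Cxcl1 in vein-like cells (1.57, edgeR adjusted p = 0.0864) and all those of Sele and ICAM1. No other call of the 8 genes changed. The pairing comes from the library itself.

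Directions turned as follows. Ccl2 in vein-like cells was -0.16 in DESeq2, -0.23 with no gate lead, -0.0769 without Selp and Lrg1 and -2.35 without Sele UMIs, where Cxcl1 was -0.14 and Cxcl10 -0.0381. In capillary-like cells Ccl2 was -0.15 in DESeq2 and -0.50 with no lead, Cxcl1 -0.0722 with a lead of 0.5, and Csf3 -1.03 without library 2 (1.14 without library 1). In tip-like cells Cxcl10 was 0.17 with no lead and 0.66 without Sele UMIs, Cxcl16 -0.37 with the stricter filter, and Csf3 0.0064 with that filter, 0.11 with a lead of 0.5 and 0.0732 with UMIs capped at 10. For Sele, Ccl2 was -0.81 in DESeq2 and -2.79 without library 2 (1.13 without library 1), and Cx3cl1 was 0.15 with the stricter filter, 0.0035 at 1 Sele UMI and 0.0574 at 3. For ICAM1, the undivided tag gave Ccl2 0.0648, Cxcl1 0.37 and Cx3cl1 0.18, Cx3cl1 was 0.12 with the stricter filter and Il6 -0.0843 in DESeq2. The causes were not tested. The alternatives on cells without a Sele UMI, on capillary-like cells, on cells without a type and with capped UMIs were chosen after seeing the data. Leaving out 1 library leaves no residual degrees of freedom, so those are values without a test.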
